A study of Homo sapiens with 4 samples.

Results

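Antisense transcripts are RNAs read from the strand opposite to another gene. They were taken here as every entry of the class antisense in the tables of RNA enriched with β-catenin, except GAS5, ZFAS1, DANCR, EPB41L4A-AS1 and gene names beginning with SNHG. This gave 263 antisense transcripts of 252 gene names among 9880 listed transcripts in HT-29 and 373 transcripts of 347 gene names among 11943 in CaCo-2, from 266 and 376 entries of the class. Together they were 594 different transcripts of 534 gene names. HT-29 and CaCo-2 are lines of human colon adenocarcinoma, and both were untreated. In each line nuclei were lysed and RNA was recovered either after RNA immunoprecipitation (RIP) with an antibody to β-catenin and protein G beads, or without antibody as input, so the 4 groups hold 1 library each. The stated aim was to find long non-coding RNAs (lncRNAs) bound to β-catenin. Each line is a single cell line without replicate libraries, so no difference below carries a replicate error or a test, and an unrelated-antibody control was not analysed here. Both tables list transcripts with a RIP level at least 1.5 times input, so the direction of every value below is set by the listing and antisense transcripts outside it were not analysed here.

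β-catenin joins cadherins to the actin skeleton and, when Wnt signalling stops its degradation, enters the nucleus and co-activates genes bound by TCF/LEF factors. It is stabilised in most colorectal cancers. An antisense RNA can lie inside its partner gene, meet its 3′ end (tail-to-tail), cross its 5′ end (head-to-head) or start back to back from a shared promoter (divergent). Many are low, nuclear and not translated, and some act on the gene they lie against, as KCNQ1OT1 does on the imprinted genes around KCNQ1. Of the intestinal markers checked, HT-29 listed 6 of 10 and CaCo-2 listed 4 of 10. The keratin genes KRT8, KRT18 and KRT19 and the cadherin gene CDH1 were listed in both lines, KRT20 and VIL1 in HT-29 alone. EPCAM, CDX1, CDX2 and HNF4A were listed in neither. Of VIM, PTPRC, COL1A1 and PECAM1, which mark other cell types, 0 of 4 were listed in either line. Listing needs a RIP level at least 1.5 times input, so a marker that is not listed may still be expressed.

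Where an antisense transcript starts back to back with its partner, both share a stretch of promoter. 3 such pairs with listed transcripts on both strands are shown, since they let a reader see how close the starts lie. FGD5-AS1 faces NR2C2, a nuclear receptor gene, LPP-AS2 faces LPP, which encodes a focal adhesion protein, and STT3A-AS1 faces STT3A, the catalytic subunit of an oligosaccharyltransferase. The windows hold 250 bases before and 50 after each RefSeq start in GRCh38.p14, and capitals mark the bases that both windows of a pair hold, read from opposite strands. The shared stretch is 177 bases for FGD5-AS1, at chr3:14947456-14947755, with the starts 78 bases apart. It is 168 bases for LPP-AS2, at chr3:188154039-188154338, with the starts 69 bases apart. For STT3A-AS1, at chr11:125592519-125592818, it is 217 bases with the starts 284 bases apart. All 3 antisense genes lie on the minus strand. The listed Ensembl transcripts start elsewhere: those of FGD5-AS1 and NR2C2 overlap by 696 bases in HT-29 and start 224 bases apart in CaCo-2, those of LPP-AS2 and LPP overlap by 127 bases, and those of STT3A-AS1 and STT3A start 591 bases apart.
FGD5-AS1: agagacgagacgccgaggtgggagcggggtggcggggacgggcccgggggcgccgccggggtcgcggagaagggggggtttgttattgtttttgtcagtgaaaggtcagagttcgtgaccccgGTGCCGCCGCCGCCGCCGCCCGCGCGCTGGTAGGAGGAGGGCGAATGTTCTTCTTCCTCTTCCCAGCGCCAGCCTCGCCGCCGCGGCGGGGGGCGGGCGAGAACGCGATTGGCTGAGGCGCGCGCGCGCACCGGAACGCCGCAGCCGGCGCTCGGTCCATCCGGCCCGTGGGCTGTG
NR2C2: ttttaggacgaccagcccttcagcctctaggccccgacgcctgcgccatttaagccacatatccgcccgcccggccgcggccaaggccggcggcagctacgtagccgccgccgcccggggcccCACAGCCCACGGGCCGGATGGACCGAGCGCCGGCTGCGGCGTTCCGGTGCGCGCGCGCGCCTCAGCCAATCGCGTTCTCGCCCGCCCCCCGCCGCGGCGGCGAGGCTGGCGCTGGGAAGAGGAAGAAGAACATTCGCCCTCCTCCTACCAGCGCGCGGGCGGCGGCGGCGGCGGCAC
LPP-AS2: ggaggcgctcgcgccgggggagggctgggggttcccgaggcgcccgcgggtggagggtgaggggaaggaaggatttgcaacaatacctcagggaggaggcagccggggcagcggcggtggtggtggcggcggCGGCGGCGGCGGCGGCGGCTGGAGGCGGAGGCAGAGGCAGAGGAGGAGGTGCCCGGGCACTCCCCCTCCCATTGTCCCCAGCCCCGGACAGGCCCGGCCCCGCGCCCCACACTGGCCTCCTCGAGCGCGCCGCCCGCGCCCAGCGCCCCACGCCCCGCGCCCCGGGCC
LPP: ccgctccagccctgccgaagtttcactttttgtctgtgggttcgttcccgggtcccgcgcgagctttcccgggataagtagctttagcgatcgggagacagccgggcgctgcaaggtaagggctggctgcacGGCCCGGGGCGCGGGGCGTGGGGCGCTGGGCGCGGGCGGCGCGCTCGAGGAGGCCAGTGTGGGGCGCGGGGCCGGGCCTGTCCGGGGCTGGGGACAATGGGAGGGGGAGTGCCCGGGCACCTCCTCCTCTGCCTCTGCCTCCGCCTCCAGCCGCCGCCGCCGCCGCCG
STT3A-AS1: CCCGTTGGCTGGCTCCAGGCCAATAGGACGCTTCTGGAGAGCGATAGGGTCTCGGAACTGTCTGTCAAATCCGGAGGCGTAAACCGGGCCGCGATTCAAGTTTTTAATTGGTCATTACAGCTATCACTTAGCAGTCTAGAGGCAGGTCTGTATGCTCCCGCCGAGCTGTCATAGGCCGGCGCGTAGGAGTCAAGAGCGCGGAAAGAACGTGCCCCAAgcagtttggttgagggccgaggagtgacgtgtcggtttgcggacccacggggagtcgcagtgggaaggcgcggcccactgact
STT3A: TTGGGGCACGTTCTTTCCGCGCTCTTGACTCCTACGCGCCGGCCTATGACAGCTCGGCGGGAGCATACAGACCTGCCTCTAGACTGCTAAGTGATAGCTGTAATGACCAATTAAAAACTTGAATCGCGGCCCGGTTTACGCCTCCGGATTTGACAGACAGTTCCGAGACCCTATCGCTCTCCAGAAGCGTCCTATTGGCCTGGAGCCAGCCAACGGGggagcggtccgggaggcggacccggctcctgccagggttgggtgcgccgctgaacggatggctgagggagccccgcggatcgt

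The core of the TCF/LEF motif, CTTTGAT or CTTTGAA on either strand, was in none of these 3 antisense windows. RefSeq promoters were found by symbol for 69 of the 534 gene names and gave 84 windows. The core was in 8 of the 84 (9.52%) and in 2409 of all 35116 RefSeq promoters of the same length (6.86%). They were 5 of 39 windows in HT-29 (12.8%) but 3 of 59 in CaCo-2 (5.08%). The windows with it belonged to GABPB1-AS1, HOXA11-AS, MDC1-AS1, SAP30L-AS1 and UXT-AS1, which were listed in HT-29, and to OR2A1-AS1 and ZNF503-AS2, listed in CaCo-2, the latter by 2 overlapping windows. The window of HOXA11-AS, an RNA of the HOXA cluster on the plus strand at chr7:27185158-27185457, is shown with the motif in capitals, 199 bases before the start.
HOXA11-AS: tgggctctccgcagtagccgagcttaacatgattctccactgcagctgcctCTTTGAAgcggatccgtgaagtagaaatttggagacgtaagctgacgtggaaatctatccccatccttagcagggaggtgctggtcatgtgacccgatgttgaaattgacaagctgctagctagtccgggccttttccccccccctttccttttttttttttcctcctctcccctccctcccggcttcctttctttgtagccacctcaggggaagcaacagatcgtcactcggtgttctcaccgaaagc
A match is a description of these letters and not a site of binding. The GC content of the 84 windows ran from 29.0% to 79.3% with a median of 62.0%, against a median of 58.7% over all promoters.

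Levels are in FPKM, fragments per kilobase of transcript scaled to the mapped fragments of the library. The antisense transcripts were low. In HT-29 the RIP level ran from 1.32 to 1906 FPKM with a median of 2.08, against 2.45 over all listed transcripts, and 122 of 263 lay under 2 FPKM. In CaCo-2 it ran from 0.846 to 20.9 with a median of 1.28, against 1.55, and 280 of 373 lay under 2 FPKM. Levels of 10 FPKM or more were reached by 15 transcripts in HT-29 and by 4 in CaCo-2. The shares of all listed transcripts under 2 FPKM or at 10 FPKM or more were not computed. RIP levels of all listed transcripts were also higher in HT-29, with medians of 2.45 and 1.55. Its listing began at a higher RIP level, 1.31 FPKM where that of CaCo-2 began at 0.842, which raises its levels by construction. Listed at 0 in input were 62 of 263 in HT-29 and, for CaCo-2, 88 of 373, or 23.6% in each, against 31.8% and 29.0% of all listed transcripts. The table does not say whether such a 0 is an absence or a failed estimate, so no fold is given from it. Where a transcript is said below to be at a pair of levels, the first is its FPKM in input and the second its FPKM in the RIP.

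**Figure D1:**
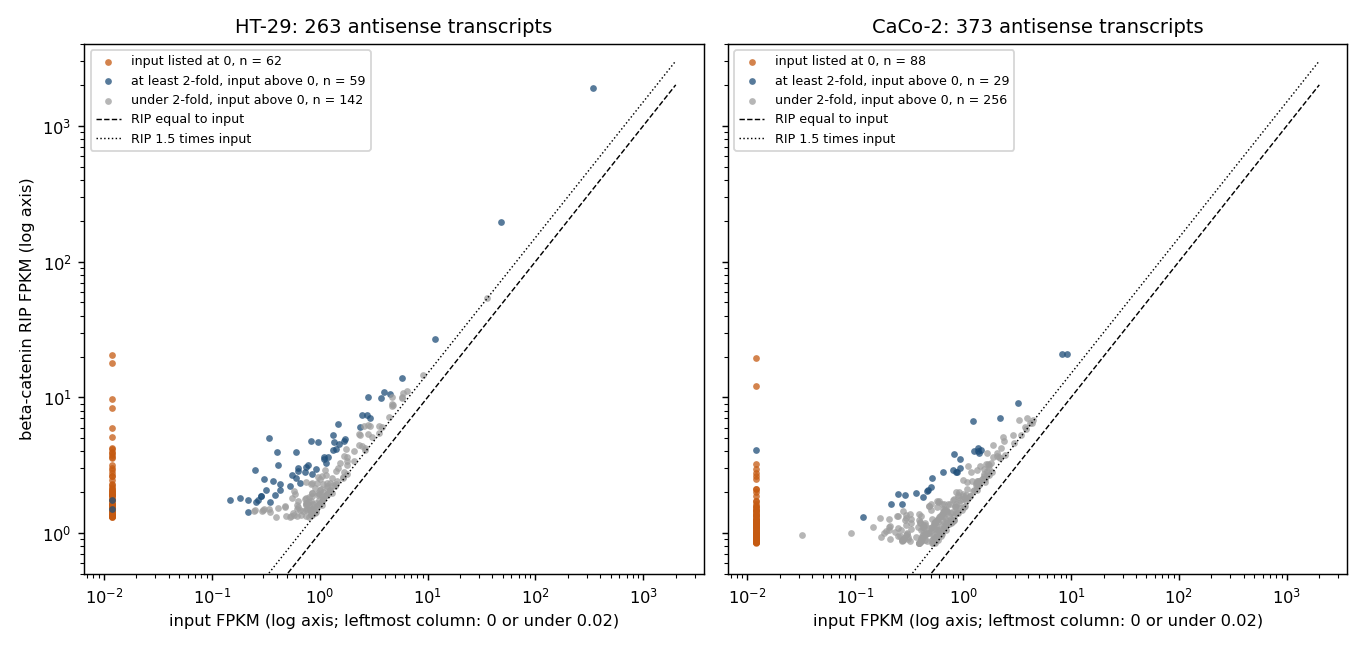
RIP against input level in FPKM, on log axes, for each antisense transcript listed in HT-29 and CaCo-2; orange points have input listed at 0, blue points have an input above 0 and a ratio of at least 2-fold, grey points a lower ratio. The points crowd at low levels above the 1.5-fold line that bounds the tables, and RN7SL1, at 1906 FPKM, stands far above the others in HT-29.

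The ratio used below is log2((RIP FPKM + 1)/(input FPKM + 1)), which understates the change of low transcripts; at least 2-fold means a ratio of at least 1. In HT-29, 121 of 263 antisense transcripts were at least 2-fold above input, or 46.0% (95% Wilson interval 40.1 to 52.0), where all listed transcripts gave 56.0%. In CaCo-2, 90 of the 288 that reached 1 FPKM in a library were, or 31.2% (26.2 to 36.8), against 40.8%. These intervals cover counting error alone. In both lines the antisense share was thus below that of listed transcripts as a whole; with 1 library per group this difference was not tested. A transcript with input listed at 0 passes the threshold as soon as it reaches 1 FPKM, and 62 of the 121 and 61 of the 90 were of this kind. Among those with input above 0, 59 of 201 (29.4%) and 29 of 227 (12.8%) were at least 2-fold, against 35.5% and 19.5% of all such transcripts. Of those with 1 FPKM or more in input and RIP alike, 24 of 93 (25.8%) and 10 of 77 (13%) were, close to the 25.2% and 13.1% of all such transcripts. The median ratio was 0.92 in HT-29, against 1.14 for all listed, and 0.61 in CaCo-2, against 0.81. Intergenic lncRNAs (lincRNAs) lay nearby, with 44.4% and 35.3% at least 2-fold.

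In HT-29, 9 of the 10 highest ratios belonged to transcripts with input listed at 0. PTCHD3P1, at chr10:29698520-29756207 in hg19, went from 0 FPKM in input to 20.6 in the RIP. AC069257.8, at chr3:195977413-195978284, went from 0 to 17.8; it lies wholly inside PCYT1A, which encodes a rate-limiting enzyme of phosphatidylcholine synthesis. RP11-667M19.10, inside the deubiquitinase gene USP28, went from 0 to 9.81. These 3 led the line by ratio with a pseudocount of 1 FPKM; with one of 5 FPKM the ratio of RN7SL1, 2.45, was above their 2.36, 2.19 and 1.57. The listed transcript around each of the last 2 was lower, that of PCYT1A at 3.05 and that of USP28 at 1.41 FPKM in the RIP. Other transcripts of these genes may lie outside the list. The library kit does not mark strand, so reads from bases shared with the surrounding transcript cannot be told apart. HOTAIRM1, a myeloid RNA at the 3′ end of the HOXA cluster, went from 0 to 8.35, AP003068.12 from 0 to 5.99 and RP11-98F14.11 from 0 to 5.08. AP003068.12 spans 302 bases and RP11-98F14.11 spans 182, and on so short a span few fragments give a high FPKM. RP11-860B13.3, DLGAP1-AS1 and PAX8-AS1 followed, at 4.22, 4.20 and 3.95 FPKM in the RIP and 0 in input. RN7SL1 was the one among the 10 with an input level above 0.

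RN7SL1 encodes the 7SL RNA, the scaffold of the signal recognition particle that carries ribosomes to the endoplasmic reticulum; its listed transcript of class antisense spans 300 bases at chr14:50053297-50053596. It was at 344.5 FPKM in input against 1906 in the RIP, a ratio of 2.46. RPPH1, the RNA subunit of RNase P, which trims tRNA precursors, was at 47.7 and 196.7 FPKM, a ratio of 2.02. Both are abundant structured RNAs that the tables place in the class antisense, and neither was listed as antisense in CaCo-2. Next by level were RP1-56K13.3, at 35.5 FPKM in input against 53.6 in the RIP, and RP11-56G10.2, at 11.8 and 27.0. AP003068.9, inside VPS51, a gene of retrograde vesicle transport, was at 9.13 and 14.6, and LINC00659 at 6.51 and 11.2. These last 4 show modest ratios, from 0.58 to 1.13, at levels that both libraries measured.

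In CaCo-2 the highest ratio was that of RP11-230C9.3, at chr6:157101461-157101589, from 0 to 19.4 FPKM. It spans 129 bases, and of 38 listed CaCo-2 transcripts with a span within 10 bases of it, whose RIP levels ran from 12.9 to 1102 FPKM, 6 were lower. SLC8A1-AS1, which lies against the gene of a sodium and calcium exchanger, went from 0 to 12.2. CTD-2537I9.12 went from 0.00199 to 4.09 and overlaps the 3′ end of U2AF2, a splicing factor gene. AC100830.5, inside the antizyme gene OAZ2, went from 0 to 3.23, STT3A-AS1 from 0 to 2.95 and PTCHD3P1 from 0 to 2.79. As in HT-29, an input at or near 0 marked these leaders; beyond the first 2 their RIP levels were under 5 FPKM. RP13-582O9.7 and RP11-535A19.2 followed, from 0 to 2.64 and from 0 to 2.50. TAB3-AS2, at chrX:30872438-30872824, differed from them: it was at 1.23 FPKM in input against 6.72 in the RIP, a ratio of 1.79.

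By level, CaCo-2 was led by RP4-816N1.7, at chr12:2906302-2913104, with 8.33 FPKM in input against 20.9 in the RIP. A transcript of FKBP4, a gene for a co-chaperone of steroid receptors, lies inside its span. RP11-746M1.1, at chr17:20903060-20903636, was at 9.18 and 20.8; it lies inside USP22, a histone deubiquitinase gene. AC010761.10 was at 3.20 and 9.07, RP11-299J3.8 at 2.19 and 7.10, and CTD-2033A16.1 at 3.90 and 7.02. CTD-3222D19.11, at 3.28 and 6.85, and AC005253.4, at 4.48 and 6.85, were followed by TAB3-AS2, which closed the 10 highest. Of these 10, RP11-230C9.3 and SLC8A1-AS1 had input at 0, and the other eight reached 1 FPKM in input as well.

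Most antisense transcripts were listed in only a single line, as were most listed transcripts. The 42 shared transcripts were 16% (12.0 to 20.9) of those in HT-29, where 19.5% of all listed transcripts were shared. In CaCo-2 they were 11.3% (8.44 to 14.9), against 16.1% of all listed. The HT-29 interval thus holds the share of all listed transcripts, and the CaCo-2 interval lies below it. By gene name, 65 were shared, 25.8% and 18.7% of the names. The same share over all listed gene names was not computed. At least 2-fold in both lines were 8 of the 39 that passed the filter in both, or 20.5% (10.8 to 35.5), against 30.0% of all such transcripts. PTCHD3P1 and RP11-60I3.4 led them, followed by RP11-805J14.5, AP000487.5, RP11-746M1.1, CTC-548K16.5, SAPCD1-AS1 and RP1-202O8.2. In such bulk lysates a larger share of cells with a transcript and more of it per cell cannot be told apart.

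RP11-60I3.4, at chr9:102677359-102692178 against STX17, a gene of autophagosome fusion, was at 0 FPKM in HT-29 input and 3.88 in the RIP, and at 0.926 and 3.54 in CaCo-2. RP11-805J14.5, at chr11:70052677-70053493, was at 1.35 and 4.69 in HT-29, and in CaCo-2 at 1.26 and 4.05. RP11-746M1.1, already named in CaCo-2, was at 5.80 and 13.9 in HT-29. The last 2 were at least 1 FPKM in all 4 libraries and their ratios were close in the lines, 1.27 and 1.16 for RP11-805J14.5 and 1.13 and 1.10 for RP11-746M1.1. They were the only 2 at least 2-fold in both lines among the 9 shared transcripts with at least 1 FPKM in every library. AP000487.5, at chr11:70218352-70244468, was at 0.315 and 2.08 in HT-29; in CaCo-2 it was at 1.37 and 4.22. It overlaps the 3′ end of PPFIA1 in the HT-29 list, and in CaCo-2 its start lies 42 bases from that of CTTN, the gene of the actin regulator cortactin. CTC-548K16.5 was at 1.19 and 3.63 in HT-29; in CaCo-2 it was at 0.875 and 2.84. SAPCD1-AS1 was at 0.346 and 1.70, and 0.808 and 2.94. RP1-202O8.2 was at 0.556 and 2.68, and 0.426 and 1.86. Its CaCo-2 ratio of 1 lay at the threshold, and RP11-700J17.1, with an HT-29 ratio of 1.32 and a CaCo-2 ratio of 0.96, and RP11-418J17.1, with 0.93 and 1.01, lay just outside it.

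The other seven with at least 1 FPKM in all 4 libraries had ratios under 1 in at least 1 line. RP4-816N1.7 had 0.75 in HT-29, from 5.97 to 10.7 FPKM, and 1.23 in CaCo-2. RP11-192H23.5, inside the aldolase gene ALDOC in the HT-29 list, had 0.76 and 0.53, and AC007566.10 had 0.73 and 0.45. RP11-140K17.3, RP4-569M23.2, RP11-178L8.8 and AC034220.3 ran from 0.43 to 0.60 in both lines. Over the 42 shared transcripts the RIP level was higher in HT-29 for 28 and the input level for 22. Listing began at a RIP level of 1.31 FPKM for HT-29, but at 0.842 for CaCo-2. This higher floor favours HT-29 in the count of 28, so that count does not show a difference between the lines. Spearman's rho across the 42 was 0.38 for the ratio and 0.42 for the RIP level; each point shares its transcript model and length between the lines, the 4 libraries are common to all points, and input was at 0 in at least 1 line for 10 of them.

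**Figure D2:**
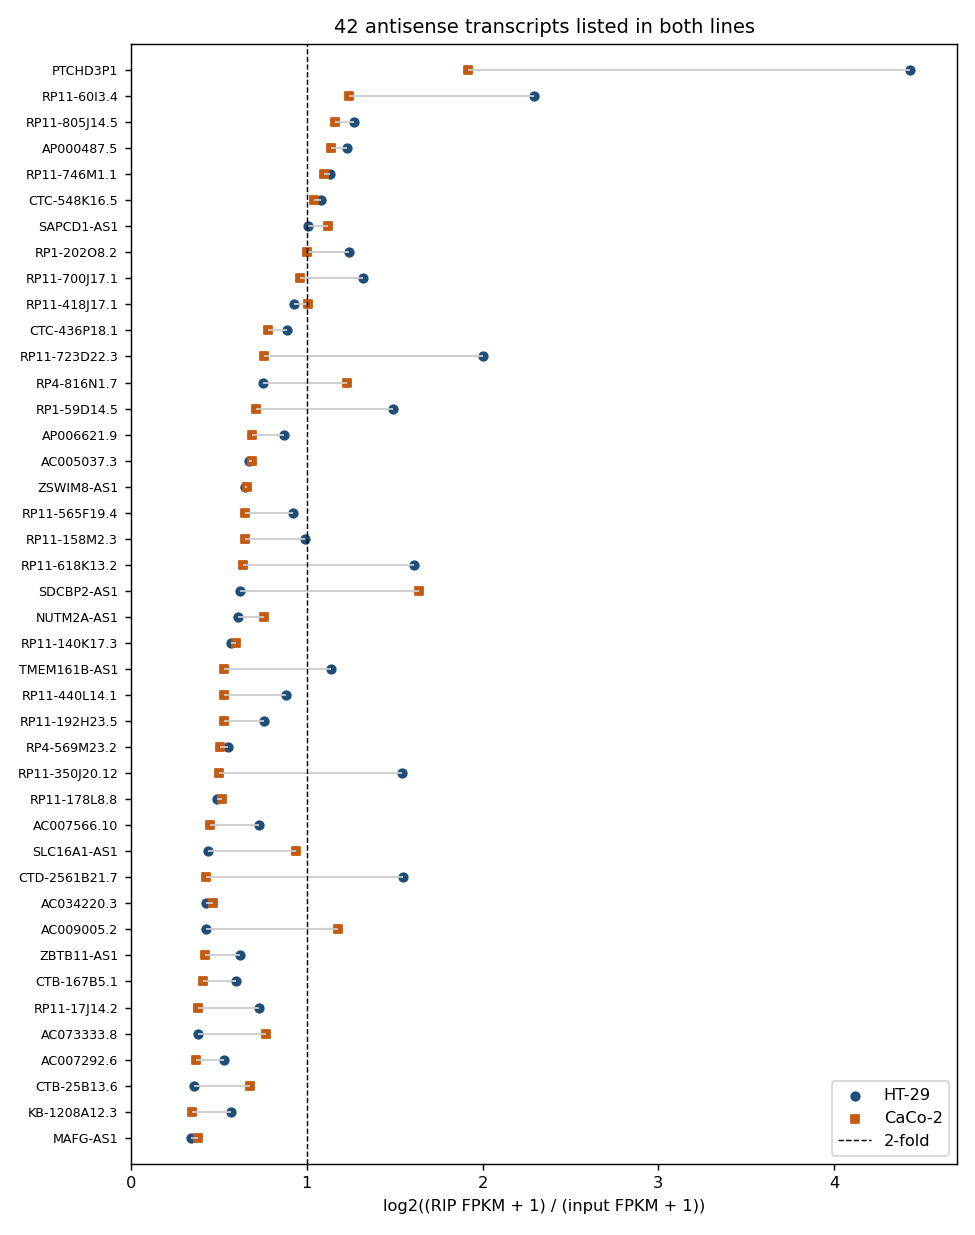
Ratio, as log2((RIP FPKM + 1)/(input FPKM + 1)), of the 42 antisense transcripts listed in both lines, with circles for HT-29, squares for CaCo-2 and a dashed line at 2-fold; transcripts are ordered by the lower of the ratios. The 8 uppermost pass the line in both, PTCHD3P1 by the most, and RP11-746M1.1 and CTC-548K16.5 have nearly the same ratio in both lines.

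A list of 91 antisense lncRNAs with published work held 11 that were listed in HT-29, by 12 transcripts, and 13 in CaCo-2, by 24 transcripts. In HT-29, 5 of the 12 were at least 2-fold, where 56.0% of all listed transcripts were, and the median ratio was 0.92, against 1.14 over all listed. In CaCo-2, 4 of the 17 that passed the filter were, where 40.8% of all such transcripts were, with a median of 0.64 against 0.82 over all listed transcripts past the filter. PAX8-AS1, at chr2:113993117-114024581 against the transcription factor gene PAX8, went from 0 FPKM in input to 3.95 in HT-29. Another transcript of it went from 0.427 to 1.14 in CaCo-2, where it crosses the start of a listed PAX8 transcript at 1.57 and 4.92. GABPB1-AS1, which starts 175 bases from GABPB1, the gene of an ETS factor subunit, was at 2.33 and 5.42 in HT-29. THAP9-AS1 was at 0.633 and 2.89 in HT-29; its CaCo-2 transcripts were at 0 and 1.19 and at 0.788 and 1.22. TRIM31-AS1 was at 1.06 and 2.63 in HT-29, and TRAF3IP2-AS1 went from 0 to 1.32 in HT-29 and from 0 to 1.01 in CaCo-2. FGD5-AS1, whose promoter is shown above, was at 0.411 and 1.53 in HT-29 and, by another transcript, at 1.09 and 2.12 in CaCo-2. NUTM2A-AS1 was at 0.757 and 1.68 in HT-29; the same transcript was at 0.601 and 1.72 in CaCo-2 and another at 1.59 and 2.40. Those listed in both lines thus stayed under 4 FPKM in the RIP, apart from HOXB-AS3.

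HOX genes set positional identity along the body axis and are flanked by many antisense RNAs. In HT-29, HOTAIRM1 (8.35 FPKM in the RIP), HOXA11-AS and HOXB-AS3 were listed, and in CaCo-2 HOXA-AS2, HOXA-AS3 and HOXB-AS3. HOXB-AS3 had 1 HT-29 transcript at 2.45 FPKM in input against 7.46 in the RIP and another at 0.856 and 2.35, both over a HOXB6 transcript at 1 and 2.57; its CaCo-2 transcript was at 0.206 and 1.28. HOXA11-AS was at 0.343 and 1.5. The strongest HOXA-AS2 transcript in CaCo-2 was at 1.67 and 3.89, and HOXA-AS3 was at 0.549 and 0.876. The HOXA RNAs lay within chr7:27135266-27228786, and no transcript of that locus was listed in both lines. TTN-AS1, against the titin gene, had 5 transcripts in CaCo-2, the highest at 1.82 and 3.28, and PCBP1-AS1 had 4, none above 1.01 FPKM in the RIP. SNAI3-AS1, at 1.32 and 2.25, and MCM3AP-AS1, at 0.754 and 1.23, complete the CaCo-2 list. Of names outside the rules for naming, TUG1, a nuclear lncRNA, was picked after its values were seen; in HT-29 it had transcripts at 0.846 and 2.72 and at 1.29 and 1.98. FAM211A-AS1, picked likewise, is an older name of SNHG29 in RefSeq; it had 5 transcripts in HT-29, from 1.62 to 10.6 FPKM in the RIP, and 3 in CaCo-2, from 1.11 to 2.74.

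**Figure D3:**
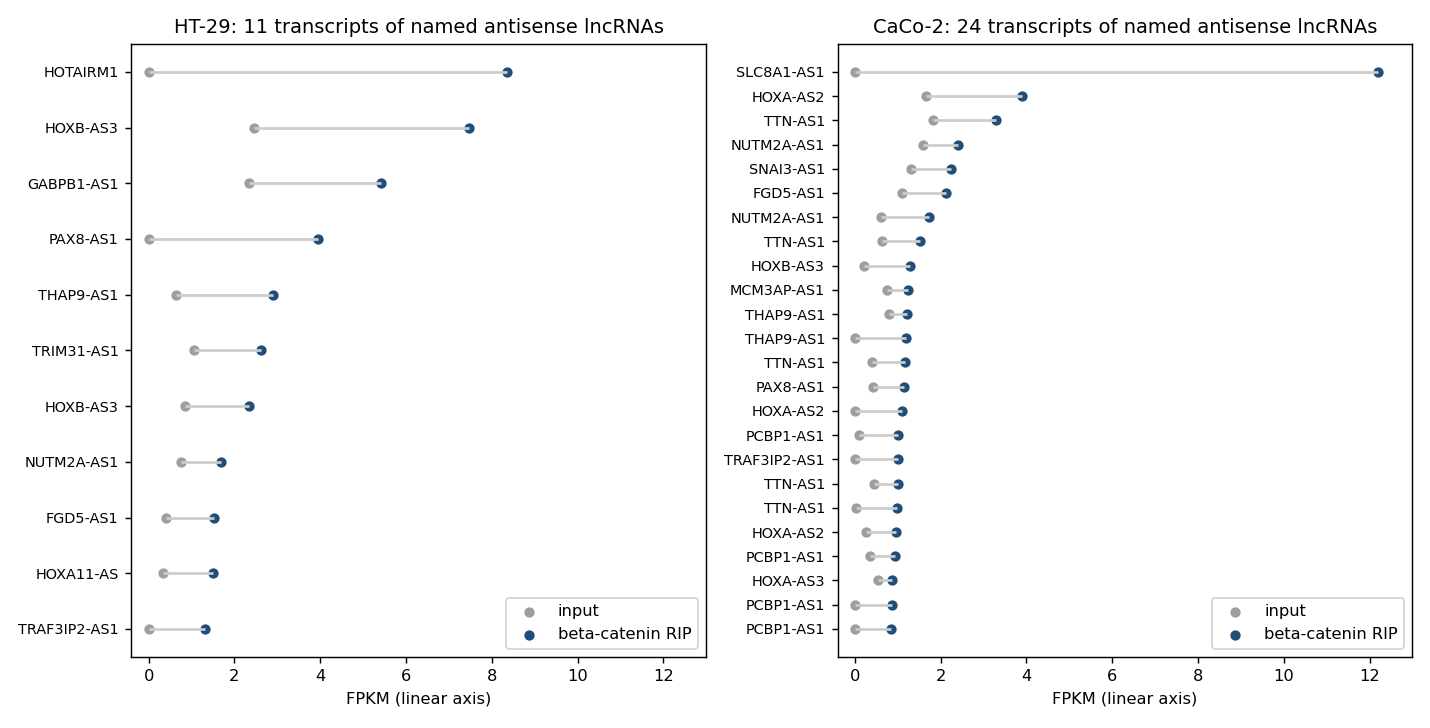
Level in FPKM, on a linear axis, of listed transcripts of the studied antisense lncRNAs in input (grey) and RIP (blue), 11 drawn for HT-29 and 24 for CaCo-2. HOTAIRM1 and HOXB-AS3 lead HT-29 and SLC8A1-AS1, from an input of 0 to 12.2, leads CaCo-2, where the others lie under 4 FPKM.

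Each antisense transcript was then placed beside the listed transcripts of the opposite strand. At least 1 base was shared by 75 of 263 in HT-29, or 28.5% (23.4 to 34.3), and by 114 of 373 in CaCo-2, or 30.6% (26.1 to 35.4). Among all listed transcripts 5.11% and 6.41% did, and 5.00% and 5.91% of lincRNAs; position against another gene defines the antisense class, so this contrast is that of the class. The rest had no overlapping partner in the list of their line, which leaves out partners under 1.5-fold. With partners from the tables of both lines, 114 (43.3%) and 161 (43.2%) had one. By RefSeq, 34 and 46 of the gene names could be placed, and 28 and 40 of these overlapped a gene of the opposite strand; the overlapping gene was itself listed for 17 of the 28 and 21 of the 40.

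By geometry, 33 antisense transcripts in HT-29 lay inside their partner, 15 met it tail-to-tail, 14 held it inside their own span, 13 crossed it head-to-head and 16 started within 1000 bases back to back without overlap. In CaCo-2 these were 62, 24, 13, 15 and 24. Lying inside the partner was thus the commonest placement in both. The divergent starts were 75 to 996 bases apart in HT-29, with a median of 185, and 17 to 790 in CaCo-2, with a median of 255. In HT-29 the head-to-head and tail-to-tail transcripts had the lowest median ratio, 0.57 each. At least 2-fold were 2 of 13 and 1 of 15, against 87 of 172 without partner and 56.0% of all listed transcripts. None of the 28 head-to-head and tail-to-tail transcripts had input at 0, where 49 of the 172 without partner did. In CaCo-2 the same placements had 0.74 and 0.70, above the 0.60 of those without partner, so the order of the placements was not shared by the lines. Of those that passed the filter there, 5 of 11 and 7 of 19 were at least 2-fold. Without partner 53 of 178 were, and 40.8% of all listed transcripts. Input was at 0 there for 3 of 15, 9 of 24 and 50 of 235.

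**Figure D4:**
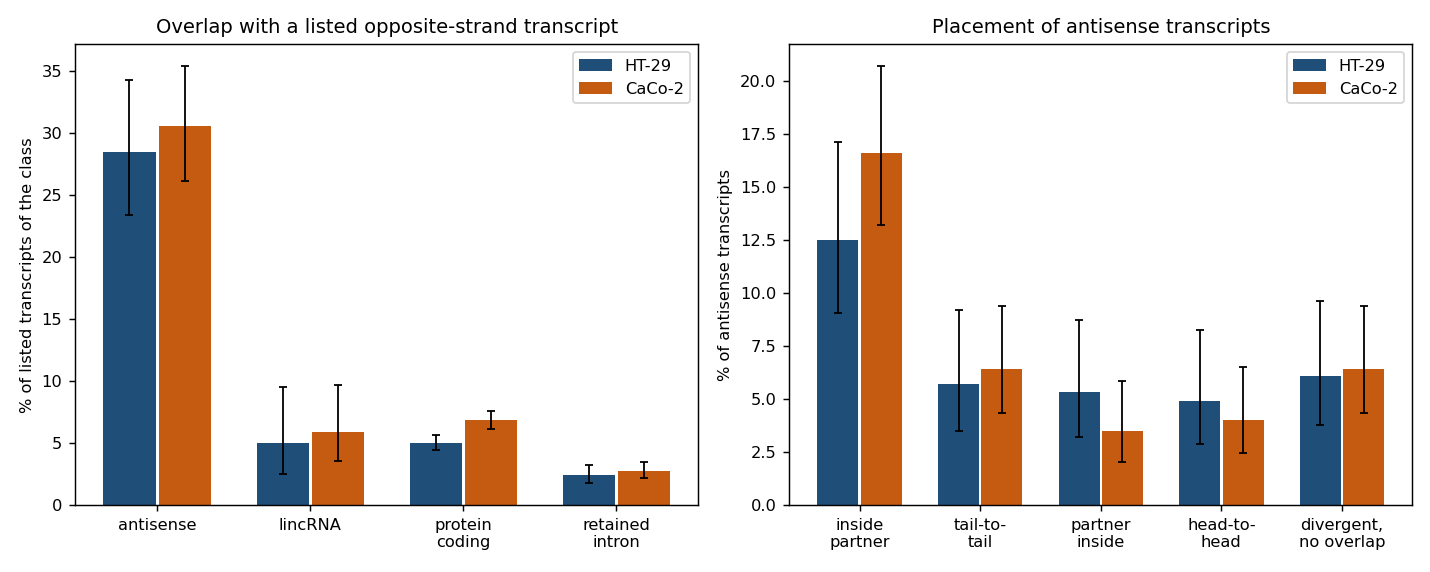
Left, percent of listed transcripts of each class that overlap a listed transcript of the opposite strand; right, percent of antisense transcripts in each placement; bars are shares and whiskers 95% Wilson intervals for counting error, with HT-29 in blue and CaCo-2 in orange. Antisense transcripts stand near 30% and the other classes under 7%, and the inside-partner placement is the tallest in both lines.

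Partners were mostly protein-coding transcripts, 44 of 75 in HT-29 (58.7%) and, in CaCo-2, 71 of 114 (62.3%). Of all listed transcripts, 4898 of 9880 and 5138 of 11943 were of that class. The library kit named in the labels does not mark strand, and the strand setting of the counting is not given in the sources used here, so reads from bases that both transcripts hold cannot be told apart. The median shared stretch was 1332 bases in HT-29 but 1460 in CaCo-2, introns included. The antisense member had the higher RIP level in 30 of 75 and 31 of 114 pairs, and the higher ratio in 33 and 44. Where several transcripts overlapped it, the partner was the one with the highest RIP level. That choice favours the partner in these counts and in the medians that follow. The median RIP level was 2.07 FPKM for the antisense member and 2.90 for its partner in HT-29; in CaCo-2 it was 1.33 and 2.16. Both members were at least 2-fold in 10 of 75 and 11 of 114 pairs, and neither in 28 and 46. The antisense member alone was in 15 and 20, and the partner alone in 22 and 37. Of all listed transcripts past the filter, 56.0% and 40.8% were at least 2-fold. Whether the calls of a pair go together was not tested. Spearman's rho between the ratios of antisense and partner was -0.05 over the 75 pairs and -0.10 over the 114, and 0.18 and 0.08 between their RIP levels; the pairs of a line share its libraries, and both members come from lists bounded at 1.5-fold. High ratios of the antisense member thus stood beside high and low ratios of the partner alike.

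**Figure D5:**
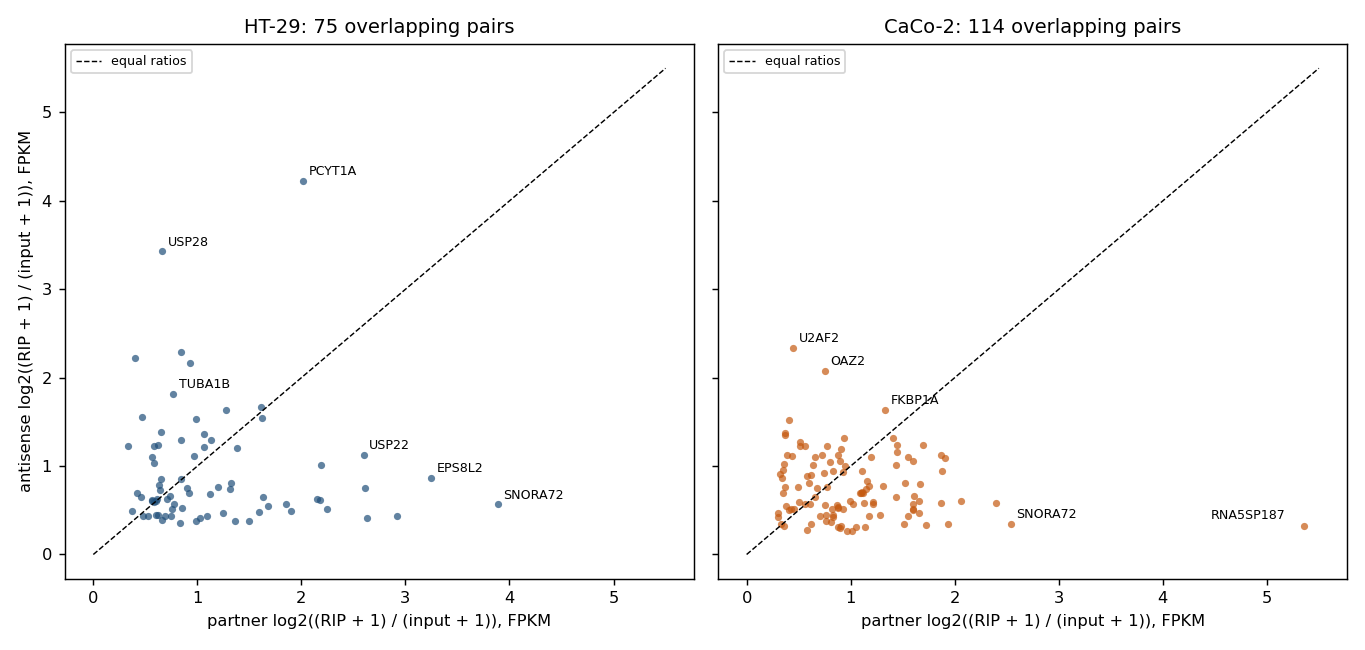
Ratio of each antisense transcript against that of its overlapping partner, both as log2((RIP FPKM + 1)/(input FPKM + 1)), for the 75 pairs of HT-29 and the 114 of CaCo-2, with a dashed line of equal ratios and some partner genes named. The points form no rising trend; AC069257.8 inside PCYT1A lies high on both axes, and partners such as SNORA72 and RNA5SP187 have high ratios beside low antisense ratios.

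The pairs given next are, apart from those named by level or ratio, the 3 of each placement whose partner had the highest RIP level, so a partner above the antisense transcript is built into the choice. RP11-386G11.10, at chr12:49524954-49541652, crosses the start of TUBA1B, an alpha-tubulin gene, by 225 bases; it was at 0.406 FPKM in input against 3.97 in the RIP, and TUBA1B at 26.7 and 46.0. RP11-161H23.5, inside TUBA1C, another alpha-tubulin gene, was at 3.93 and 11 with its partner at 6.96 and 16.4, ratios of 1.29 and 1.13. The antisense member thus had the higher ratio in both tubulin pairs. AC068580.6, inside CTSD, the gene of the lysosomal protease cathepsin D, was at 1.08 and 2.01 and CTSD at 30.1 and 55. CTB-167B5.1, inside the calcium-binding sorcin gene SRI, was at 0.742 and 1.64 and SRI at 14.3 and 21.5. RP11-1079K10.4 overlaps the end of PHB, the gene of mitochondrial prohibitin, and was at 5.81 and 9.95 with PHB at 8.64 and 20. RP11-148K1.12 overlaps the end of the anion exchanger gene SLC4A2, at 5.78 and 9.52, and was at 1.14 and 2.70. CTB-179K24.3, at 0.749 and 1.61, shares 11197 bases with GEMIN7, a gene of the complex that assembles splicing particles, at 2.16 and 4.43, and RP11-519G16.2, at 1.64 and 2.58, holds CTD-2651B20.7 at 0.886 and 13.2. The first 5 of these HT-29 partners were abundant, and their ratios lay between 0.56 and 1.13. AP006621.9, whose span holds an EPS8L2 transcript, was at 0.555 and 1.83, and that transcript went from 0 to 8.48. RP1-199J3.7, head-to-head with the cyclin C gene CCNC over 131 bases, was at 0.966 and 1.62 with CCNC from 0 to 5.18. Among divergent neighbours, RN7SL1 starts 203 bases from RPS29, a ribosomal protein gene at 191.3 and 529.9, RP11-421L21.3, at 0.148 and 1.76, starts 147 bases from DPH5 at 2.67 and 5.44, and AC004854.4, at 0.897 and 1.4, starts 996 bases from the histone variant gene H2AFV at 22.4 and 45.4.

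In CaCo-2, LPP-AS2 was at 1.37 and 2.41 FPKM and crosses the start of LPP, at 7.33 and 13.7, by 127 bases. AC009133.12 went from 0 to 1.49 and crosses the start of MVP, the major vault protein gene, at 2.73 and 6.15. AC091133.1, at 0.502 and 2.19, crosses the start of SNF8, a gene of the endosomal ESCRT machinery, at 1.07 and 6.80. RP11-537A6.9 lies inside ANXA7, an annexin gene, and was at 0.675 and 1.47 with its partner at 5.44 and 9.81. NUCB1-AS1, at 0.297 and 1.30, lies inside NUCB1 at 2.14 and 5.99, and RP11-405F3.5, at 0.204 and 1.12, inside the adhesion receptor gene GPR56 at 3.75 and 6.23. The ratio of the antisense member was above that of its partner for AC009133.12 and RP11-405F3.5 and below it for the other four. AC005387.3 met FKBP8 tail-to-tail and went from 0 to 0.926, with FKBP8 at 3.60 and 8.95, and AC107081.5 met CCT4, a subunit gene of the chaperonin CCT, at 0.628 and 0.960 with CCT4 at 3.99 and 9.04. Among divergent pairs, UBL7-AS1 was at 0.715 and 1.44 with UBL7 at 0.438 and 4.37, 87 bases away, NIFK-AS1 at 0.403 and 1.05 with CLASP1, a microtubule plus-end gene, at 1.72 and 2.74, and SETD5-AS1 at 0.499 and 1.49 with SETD5 at 1.11 and 2.58. TMEM161B-AS1, at 0.653 and 1.07, spans RNA5SP187, a 5S ribosomal RNA pseudogene listed from 0 to 40.0.

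The same gene pair was found in both lines 13 times; the pairs not named above were chosen because they recurred, after their values were seen. RP11-746M1.1 lies inside USP22, whose transcript was at 6.06e-04 FPKM in input against 5.08 in the RIP in HT-29, and in CaCo-2 at 1 and 4.86. RP4-816N1.7 holds an FKBP4 transcript that was at 1.69 and 4.02 and at 3.19 and 4.98. SDCBP2-AS1 meets FKBP1A, the gene of the FK506-binding protein, tail-to-tail; it was at 1.03 and 2.12 in HT-29 with FKBP1A from 0 to 3.53, and in CaCo-2 went from 0 to 2.12 with FKBP1A from 0 to 1.52. ZSWIM8-AS1 lies inside ZSWIM8, a ubiquitin ligase gene, and was at 0.631 and 1.57 in HT-29; in CaCo-2 it was at 1.69 and 3.24, with nearly equal ratios of 0.65 and 0.66. AC073333.8 met BZW2 tail-to-tail, at 0.840 and 1.4 and at 0.331 and 1.27, with a protein-coding BZW2 transcript at 12.3 and 25.4 in HT-29 and another, of the nonsense-mediated decay class, at 2.69 and 7.39 in CaCo-2. AP006621.8, against the triglyceride lipase gene PNPLA2, was at 0.342 and 5.05 in HT-29 and, by another transcript, at 0 and 1.18 in CaCo-2. KB-1208A12.3 holds SNORA72, a small nucleolar RNA that guides pseudouridylation; it was at 0.990 and 1.95 and at 0.572 and 1.01, beside SNORA72 at 67.2 and 1010 in HT-29 and, for CaCo-2, at 18.6 and 113.2. RP11-137L10.6 beside the calcineurin gene PPP3CB, SETD5-AS1 beside SETD5 and TMEM161B-AS1 beside TMEM161B were divergent in both lines. In the HT-29 pairs these neighbours were at 2.13, 1.68 and 2.31 FPKM in the RIP. FGD5-AS1 with NR2C2, RP11-60I3.4 with STX17, AP006621.9 with EPS8L2 and AP006621.8 with PNPLA2 recurred in different placements, each with another transcript of at least 1 gene of the pair; the partner is the transcript with the highest RIP level.

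A list of 80 Wnt pathway and intestinal genes was searched for antisense members. In HT-29, 28 of these genes had listed transcripts, and in CaCo-2 31 had. RP1-68D18.4, at chr11:35231890-35236532 inside CD44, a Wnt target gene for a hyaluronan receptor, was at 0.963 FPKM in input against 1.99 in the RIP in HT-29, with CD44 at 2.90 and 4.89. The antisense transcript and CD44 had nearly the same ratio, 0.61 and 0.60, and neither reached 2-fold. The library kit does not mark strand, so reads of this pair from shared bases cannot be told apart. By RefSeq, GNG12-AS1, listed in HT-29, overlaps WLS, another gene of the list with a listed transcript there. AC000111.3 and AC000111.6 lie inside CFTR, the chloride channel gene of gut epithelium, and were picked after their values were seen; in CaCo-2 they went from 0 to 1.36 and from 0 to 1.23, with CFTR at 1.14 and 4.82.

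Joined where less than 50000 bases apart, the 594 transcripts formed 510 loci, of which 22 held at least 2 gene names and 3 held at least 3. Besides the HOXA locus these were chr17:27054276-27077097, with AC010761.6, AC010761.9, AC010761.10 and AC010761.14, and chr4:750810-775637, with AC139887.4, RP11-440L14.1 and RP11-440L14.4. AC010761.9 lies inside TRAF4, the gene of a signalling adaptor, and was at 1.14 and 3.31 in HT-29. RP11-440L14.1 had an HT-29 transcript at 4.69 and 10 FPKM. Chromosome 17 held 30 antisense transcripts in HT-29, 11.4%, where it held 7.88% of all listed, and 51 in CaCo-2, 13.7% where it held 7.95%. It was picked after the shares of all chromosomes were seen, and others went the opposite way. Chromosome 14 held 1.52% of the HT-29 antisense transcripts but 3.31% of all listed there. Its CaCo-2 shares were 1.88% of antisense and 3.94% of all listed transcripts. Whether any chromosome departs from its share of all listed was not tested. Both strands were used about equally, with 131 of 263 and 182 of 373 on the plus strand. Clone-based names made up 202 of 263 and 278 of 373.

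In the authors' deposited table, q was at or below 0.05 for 1 antisense transcript in HT-29, PAX8-AS1 with a q of 0.00575, and for 0 in CaCo-2, where the lowest q was 0.172, for ADORA2A-AS1. Among all listed transcripts 3.08% and 2.24% had such a q in the authors' deposited table. An unadjusted p at or below 0.05 stood in the authors' deposited table for 5 antisense transcripts in HT-29 (1.90%, against 17.0% of all listed) and 14 in CaCo-2 (3.75%, against 14.3%). ADORA2A-AS1, which overlaps the end of the adenosine receptor gene ADORA2A, went from 0 to 1.42 FPKM. These p-values come from 1 library on each side.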

How the data were processed

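RNA of β-catenin immunoprecipitates (RIP) and input was sequenced in HT-29 and CaCo-2 cells, with 1 library per group and 4 in all. Per the submitters' processing notes, CASAVA 1.4, Bowtie2, TopHat2 2.0.8, Cufflinks and Cuffdiff were used with hg19; no source used here gives their settings or the strand setting of the counting. The authors deposited, per line, a Cuffdiff table of FPKM values per Ensembl transcript, with the authors' p-values and q-values, which are quoted as theirs. Transcripts in it are at least 1.5-fold higher in the RIP, with RIP FPKM of at least 1.31 in HT-29 and 0.842 in CaCo-2, so sequencing depth is unknown and lower transcripts were not analysed here.

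From these, ratios with a pseudocount of 1 FPKM were computed for transcripts that reached 1 FPKM in either library, with shares and 95% Wilson intervals (Python 3.11.15, pandas 2.3.3, numpy 2.4.6, scipy 1.17.1). No test was run, since each group is 1 library. A partner is the overlapping listed transcript of the opposite strand with the highest RIP FPKM, or else a back-to-back start within 1000 bases. Coordinates of transcripts are hg19, counted from 1; promoters are RefSeq's of GRCh38.p14, matched by symbol. The code for placement and the 2-fold threshold was tested on simulated data of 200 antisense transcripts with HT-29 input levels and recovered 100% of both.

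The antisense transcripts and lists were chosen with earlier results of these data known. Named were, per line, the 10 highest ratios, the 10 highest RIP levels and those with the authors' q at or below 0.05; over both lines, the 10 highest lower ratios, with and without at least 1 FPKM in all 4 libraries; per placement, the 3 with the highest partner level; and members of the lists of studied antisense lncRNAs and of Wnt and intestinal genes. Alternatives covered the pseudocount, the filter, inputs at 0, 1 transcript per gene name, matching by name, and the partner's overlap, table and class. A result that these rules would name is not reported here.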

Additional observations from a re-analysis of the deposited data

How the results depend on the processing

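The counts at least 2-fold above input rested on the pseudocount and on inputs at or near 0. In HT-29 the count of 121 became 8 with a pseudocount of 5 FPKM, 24 with at least 1 FPKM in both libraries and 59 without inputs at 0; with a pseudocount of 0.1 it was 177. In CaCo-2 the count of 90 became 171 with a pseudocount of 0.1 and 2 with one of 5, 10 with at least 1 FPKM in both libraries and 29 without inputs at 0. The last 2 alternatives keep fewer transcripts by construction. Shares of all listed transcripts with a pseudocount of 0.1 or 5 FPKM were not computed. Whether the antisense shares lie below them at these settings is thus not known. No filter and 1 transcript per gene name stayed within 1.5 times in both lines. The 8 transcripts at least 2-fold in both lines became 18 with a pseudocount of 0.1, 2 with at least 1 FPKM in both libraries and 6 without inputs at 0. The 42 listed in both lines were 65 by gene name. The 75 that overlap a listed partner in HT-29 became 114 with partners from either table; in CaCo-2 this gave 161 in place of 114. At least 100 shared bases gave 72 and 113, and protein-coding partners 52 and 81. A fit over both lines with the line as a block was not run, since a transcript is in both tables through being higher in both RIP libraries. With a pseudocount of 5 FPKM, RN7SL1 passed PTCHD3P1 as the highest HT-29 ratio among those named (2.45 against 2.36). Depth is unknown, and levels near 1 FPKM carry no error here. Exon structure was not analysed here, so a shared stretch may hold no shared exon.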
